A study of Bos taurus with 138 samples.

Results

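The nucleolar ribosome biogenesis genes described here are 46 protein-coding genes chosen by their known roles in making ribosomal subunits, by a rule that uses no measured value although earlier results of these data were known, and all 46 were found among the 16706 gene symbols of the count table. They comprise 8 genes of RNA polymerase I transcription, 8 proteins of small nucleolar ribonucleoproteins (snoRNPs), 15 factors of the small subunit processome and 40S maturation, 12 factors of large subunit assembly and 3 abundant nucleolar proteins. The libraries came from wild-type cattle (Bos taurus) at 6 stages, namely germinal vesicle (GV) oocytes, metaphase II (MII) oocytes, and 2-cell, 8-cell, morula and blastocyst embryos, with no genotype or drug treatment compared. GV oocytes were taken from slaughterhouse ovaries, MII oocytes were matured from such oocytes in vitro, and embryos were made by in vitro fertilisation with semen of a Holstein bull and were cultured without a uterus. Every library was made from a pool of oocytes or embryos, so that no value belongs to a single animal. At each stage whole oocytes or embryos gave 3 transcriptome libraries (replicates A, B and C). For the gradients, cycloheximide, which holds ribosomes on mRNA, was added to the culture of oocytes and embryos before collection. It was also in the lysis buffer and the gradients. The lysates were separated on 2 sucrose gradients (A and B) of 10 fractions each (F1 to F10). mRNA with more ribosomes sediments further, and the counts of F8, F9 and F10 of a gradient were summed as its polysome pool.

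Ribosomes are built in the nucleolus, where RNA polymerase I transcribes the precursor of the large ribosomal RNAs, snoRNPs guide its methylation and pseudouridylation, and the processome and the large subunit factors fold, cut and package it with ribosomal proteins. The growing oocyte makes ribosomes and stores them, the nucleolus of the full-grown oocyte is inactive, and in cattle functional nucleoli form again around the 8-cell stage, when the embryonic genome becomes active. The comparisons below ask when the mRNAs of the nucleolar machinery were present and when they were on polysomes.

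Expected counts per library summed to between 3269386 and 11812567 in the 18 transcriptomes and to between 22543737 and 39380638 in the 12 polysome pools. Levels are given as TMM-scaled CPM, the usual rescaling of a count to a common library total, so that each is a share of the polyadenylated RNA counted in a library and not a number of molecules per embryo. The design does not separate a change in the amount of an mRNA, a change in its poly(A) tail, which the oligo(dT) primer needs, and a change in the rest of the RNA. The labels were checked against markers. The summed level of 8 oocyte genes lay between 21700 and 25100 CPM in GV transcriptomes and between 46.9 and 764 CPM in blastocysts, whereas that of 7 blastocyst lineage genes lay between 68.9 and 78.2 CPM in GV oocytes and between 5290 and 6190 CPM in blastocysts. The 12 cumulus cell genes listed as markers summed to between 442 and 793 CPM in GV, MII and 2-cell transcriptomes, to between 46.6 and 72.3 CPM in morulae and blastocysts, and to 1580 to 9420 CPM at the 8-cell stage. Most of the 8-cell sum was 1 gene, LUM, a matrix proteoglycan, at 8110, 1690 and 1080 CPM in replicates A, B and C, and was 0 in GV oocytes, and 4 blood and leukocyte genes summed to at most 157 CPM in any transcriptome.

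The members as a group were present at every stage. Their levels summed to between 5910 and 6860 CPM in GV transcriptomes, reached 11200 to 11400 CPM in morulae and were lowest in blastocysts, at 5020 to 5370 CPM. In the transcriptomes 16 of the 46 members had their highest mean in morulae, 9 in MII oocytes, 7 in blastocysts, 6 at the 8-cell stage, 5 in GV oocytes and 3 at the 2-cell stage. In the polysome pools 18 had it in morulae, 13 at the 8-cell stage and 15 at the other 4 stages, and for 18 members both kinds of library peaked at the same stage. Shares of all genes with these peaks are not given, so the peaks may not be particular to the members. A gene was called changed where its adjusted p was below 0.05 (edgeR quasi-likelihood test, Benjamini-Hochberg over 14612 genes). A share of all genes beside a member count belongs to the fit with all libraries. None is given for separate models, for DESeq2 or for fits without 1 library. Of 341 values called over all comparisons, 182 kept the call and stayed within 1.5 times without any 1 library. Labels do not say that same-stage libraries came from separate females, so that p-values measure the spread between pools.

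**Figure D1:**
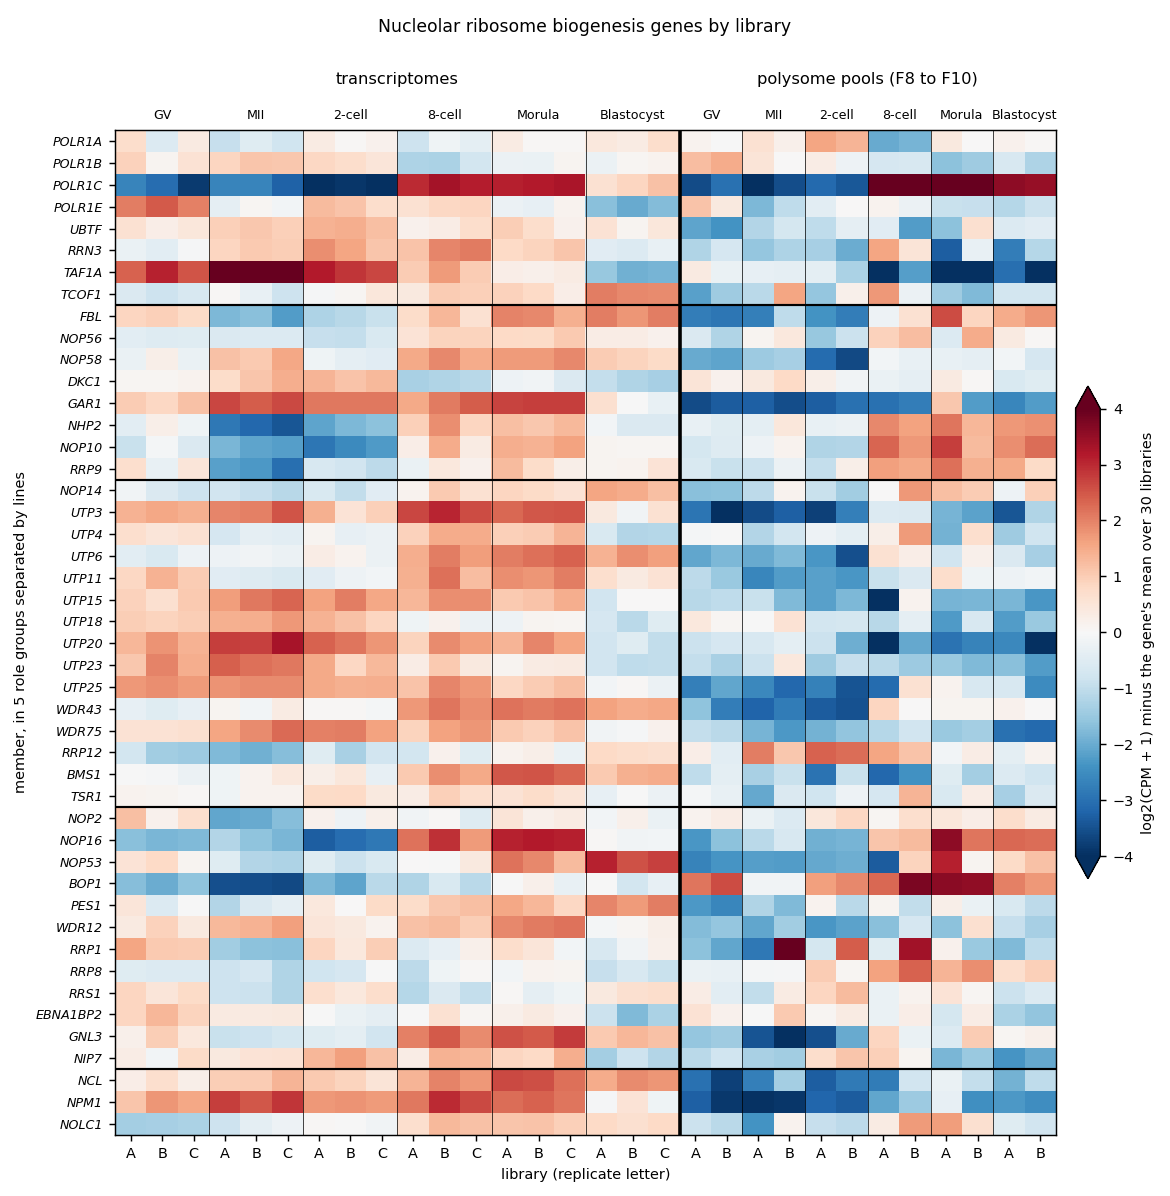
Level of each of the 46 members (rows, in 5 role groups separated by lines) in 18 transcriptomes and 12 polysome pools (columns, by stage and replicate letter), drawn as log2(CPM + 1) minus the gene's mean over the 30 libraries. POLR1C turns from blue to red between the 2-cell and 8-cell stages in both kinds of library, and the rows of the small subunit factors, NCL and NPM1 are mostly red in transcriptomes and blue in polysome pools.

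During maturation from GV to MII, 4 members rose and 11 fell in the transcriptome, against 7.72% of all genes tested that rose and 10.9% that fell. The falls were spread over snoRNP proteins (4 of 8 lower, 2 higher), large subunit factors (4 of 12 lower) and RNA polymerase I genes (2 of 8 lower). FBL, the rRNA methyltransferase of box C/D snoRNPs, was at 84.3, 88.2 and 77.3 CPM in GV oocytes and at 12.3, 13.7 and 8.92 CPM in MII oocytes. All 3 MII values of FBL lay below all 3 GV values, with a log2 fold change of -2.84 (SE 0.43, adjusted p = 2.52e-05). NHP2, a core protein of the H/ACA snoRNPs that pseudouridylate rRNA, fell by 3.11 on the log2 scale (SE 0.31, adjusted p = 9.43e-08), from 112, 178 and 132 CPM to 19.7, 16.0 and 13.2 CPM. RRP9, which binds the U3 snoRNA, went from 33.9, 16.9 and 29.7 CPM to 3.89, 3.45 and 1.67 CPM (log2 fold change -3.16, SE 0.46, adjusted p = 1.62e-05). Neither of these genes overlapped between the stages.

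BOP1 forms the PeBoW complex of the large subunit with PES1 and WDR12. It had 2 to 3 counts in each MII transcriptome, and its level was 3.72, 2.87 and 3.95 CPM in GV oocytes and 0.343, 0.304 and 0.238 CPM in MII oocytes. The ratio of GV to MII was 11.9, with an interval from counting error alone of 5.86 to 28.3 (95%), and the fall was called (adjusted p = 8.41e-06). The members that rose were NOP58, WDR75, NPM1 and DKC1. NOP58, a scaffold of box C/D snoRNPs, went from 204, 291 and 205 CPM to 565, 518 and 732 CPM (log2 fold change 1.37, SE 0.22, adjusted p = 6.23e-05). WDR75, a processome protein, rose by 1.33 (SE 0.24, adjusted p = 0.000241), from 159, 159 and 164 CPM to 315, 390 and 507 CPM. The nucleolar chaperone NPM1, nucleophosmin, was at 339, 533 and 455 CPM and then at 1060, 871 and 1130 CPM, without overlap (1.2, SE 0.35, adjusted p = 0.0178), a call that was lost without GV replicate A, GV replicate C or MII replicate C, when the value was between 1.04 and 1.22. With RLE in place of TMM scaling the median of all genes moved by 0.12 in this transition.

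On polysomes 3 members rose and 5 fell between GV and MII, against 3.08% and 2.35% of all genes. The members that fell furthest were GNL3, BOP1 and POLR1E. GNL3, the nucleolar GTPase nucleostemin, went from 18.7 and 20.5 CPM to 4.32 and 1.47 CPM (log2 fold change -2.76, SE 0.54, adjusted p = 0.00351), and without MII pool B the value was -2.17 and not called, while without MII pool A it was -3.75. POLR1E, a subunit of RNA polymerase I, fell from 313 and 183 CPM to 39.4 and 69.2 CPM (-2.19, SE 0.33, adjusted p = 0.000393), and its transcriptome level fell as well (-2.32, SE 0.27, adjusted p = 7.23e-07). BOP1 fell from 65.5 and 92.4 CPM to 12.7 and 12.9 CPM (-2.62, SE 0.47, adjusted p = 0.00162). Of the members that rose, RRP1 rested on 1 pool, since the MII pools held 2.02 and 745 CPM and 96.1% of the counts of pool B came from its F10. Without MII pool B the fold change of RRP1 was -1.33, in place of 6.20. TCOF1, the nucleolar phosphoprotein treacle, went from 2.60 and 5.08 CPM to 6.63 and 46.9 CPM (2.80, SE 0.74, adjusted p = 0.0259), and the processome factor RRP12 from 32.6 and 19.9 CPM to 114 and 58.2 CPM (1.71, SE 0.44, adjusted p = 0.0211). Both lost the call in 3 of the 4 fits without 1 pool, TCOF1 with 0.79 without MII pool B and RRP12 with 1.13 without MII pool A. Leaving out 1 pool left 3 calls without GV pool A, and 4 without GV pool B or without MII pool B. A model of the 12 polysome pools alone called 0 members in this transition by the same edgeR test, with 3 higher and 4 lower at an unadjusted p below 0.05, while DESeq2 called 7 higher and 8 lower.

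From MII to the 2-cell stage, 7 members rose and 5 fell in the transcriptome, against 6.50% and 6.62% of all genes. The 3 members with the highest fold changes, BOP1, NOP2 and RRP9, had all fallen into MII. Both transitions use the same MII transcriptomes, so a fall and a later rise are not independent. BOP1 rose to 3.42, 2.56 and 6.24 CPM, a ratio of 13.9 (95% counting interval 6.87 to 32.7, adjusted p = 1.35e-05). NOP2, an rRNA cytosine methyltransferase of the large subunit, rose from 6.30, 6.69 and 8.45 CPM to 33.5, 25.6 and 34.7 CPM (log2 fold change 2.13, SE 0.33, adjusted p = 0.000102). RRP9 rose to 12.9, 11.9 and 9.48 CPM (1.92, SE 0.44, adjusted p = 0.00399). The lowest fold changes were those of POLR1C, NOP16 and NOP58. POLR1C, a subunit shared by RNA polymerases I and III, fell from 1.95, 1.93 and 0.952 CPM to 0.152, 0.240 and 0.150 CPM, which were 2, 3 and 2 counts, and the ratio of MII to 2-cell was 9.07 (95% counting interval 4.05 to 23.9, adjusted p = 0.00462). NOP16, a large subunit factor, fell from 23.9, 17.2 and 14.6 CPM to 4.72, 5.68 and 6.62 CPM (-1.71, SE 0.33, adjusted p = 0.000826). NOP58 fell back to 221, 191 and 181 CPM (-1.61, SE 0.22, adjusted p = 2.5e-05), and it fell on polysomes too, from 88.9 and 98.7 CPM to 28.6 and 19.3 CPM (-1.97, SE 0.28, adjusted p = 0.00012).

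The polysome pools held 4 members that rose from MII to 2-cell and 2 that fell, against 3.44% and 5.21% of all genes. NIP7, a large subunit factor that overlaps the genes TMED6 and TERF2, rose from 12.4 and 11.6 CPM to 52.0 and 70 CPM (log2 fold change 2.35, SE 0.43, adjusted p = 0.00153). BOP1 rose to 46.9 and 56.5 CPM (2.01, SE 0.46, adjusted p = 0.00753), and this call was lost without MII pool B (2.01) or 2-cell pool B (1.87). RRS1, which brings the 5S ribonucleoprotein to the large subunit, went from 22.9 and 58.1 CPM to 84.2 and 112 CPM (1.27, SE 0.39, adjusted p = 0.0445) and kept its call in 1 of the 4 fits without 1 pool, that without MII pool B (2.08). NOP56, the partner of NOP58 in box C/D snoRNPs, fell from 343 and 430 CPM to 112 and 176 CPM (-1.42, SE 0.39, adjusted p = 0.0227), and was not called without MII pool B (-1.26) or 2-cell pool A (-1.14). The model of polysome pools alone called 0 members by edgeR, with 3 higher and 4 lower at an unadjusted p below 0.05, and DESeq2 called 8 higher and 7 lower.

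From the 2-cell to the 8-cell stage, in the transcriptome, 18 members rose and 4 fell, where 27.7% of all genes rose and 24.6% fell, and the median log2 fold change was 0.64 over the members and 0.03 over all genes. Of the snoRNP proteins 6 of 8 rose and 1 fell, with a median of 1.8, and of the small subunit factors 7 of 15 rose and 1 fell, with a median of 0.54. Large subunit factors had 2 of 12 higher and 1 lower, RNA polymerase I genes 1 of 8 higher and 1 lower, and 2 of the 3 abundant nucleolar proteins rose. The calls of NPM1 (0.89), NOLC1 (1.11) and RRP9 (1.0) were each lost in 5 of the 6 fits without 1 transcriptome. Between 18 and 22 members were called when any 1 of the 6 transcriptomes was left out. Without the 8-cell replicate A, the library with the highest LUM level, 18 members rose and 4 fell, as with it.

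POLR1C had the widest change. Its 3 transcriptome values went from 0.152, 0.240 and 0.150 CPM at the 2-cell stage to 144, 184 and 161 CPM at the 8-cell stage, and its polysome pools from 1.14 and 0.769 CPM to 903 and 998 CPM. All 8-cell libraries of both kinds lay far above all 2-cell libraries. The transcriptome ratio was 905 (95% counting interval 439 to 2250, adjusted p = 1.93e-10), and on polysomes the log2 fold change was 9.95 (SE 0.82, adjusted p = 3.8e-09). XPO5, which overlaps POLR1C, was at 62.1, 45.2 and 34.1 CPM in 2-cell and at 23.3, 32.9 and 46.3 CPM in 8-cell transcriptomes, where the ranges overlap. NOP16 came next, from 4.72, 5.68 and 6.62 CPM to 250, 419 and 181 CPM (5.64, SE 0.38, adjusted p = 4.94e-11). NOP10, the smallest H/ACA core protein, rose from 13.6, 17.4 and 21.5 CPM to 129, 297 and 135 CPM (3.42, SE 0.37, adjusted p = 4.91e-08), and NHP2 from 34.0, 42.4 and 46.9 CPM to 293, 551 and 275 CPM (3.18, SE 0.31, adjusted p = 1.21e-08). FBL rose from 18.9, 20.5 and 24.3 CPM to 75.6, 115 and 69.3 CPM, against 77.3 to 88.2 CPM in GV oocytes (2.03, SE 0.41, adjusted p = 0.000259).

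The 4 members that fell in the transcriptome were DKC1, POLR1B, RRS1 and UTP18. DKC1, the pseudouridine synthase dyskerin, went from 730, 633 and 702 CPM to 115, 124 and 131 CPM (log2 fold change -2.48, SE 0.22, adjusted p = 2.69e-09), and so moved against NOP10 and NHP2, which are partners of DKC1 in the H/ACA particle. GAR1, another H/ACA core protein, was not called in this transition. POLR1B, the partner of POLR1A in the catalytic core of RNA polymerase I, went from 116, 107 and 91.1 CPM to 27.0, 26.7 and 38.6 CPM (-1.76, SE 0.28, adjusted p = 1.19e-05). RRS1 fell from 75.0, 61.9 and 75.1 CPM to 20.2, 30.6 and 23.2 CPM (-1.52, SE 0.32, adjusted p = 0.000453). The highest 8-cell value was below the lowest 2-cell value for each of these 3 genes.

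**Figure D2:**
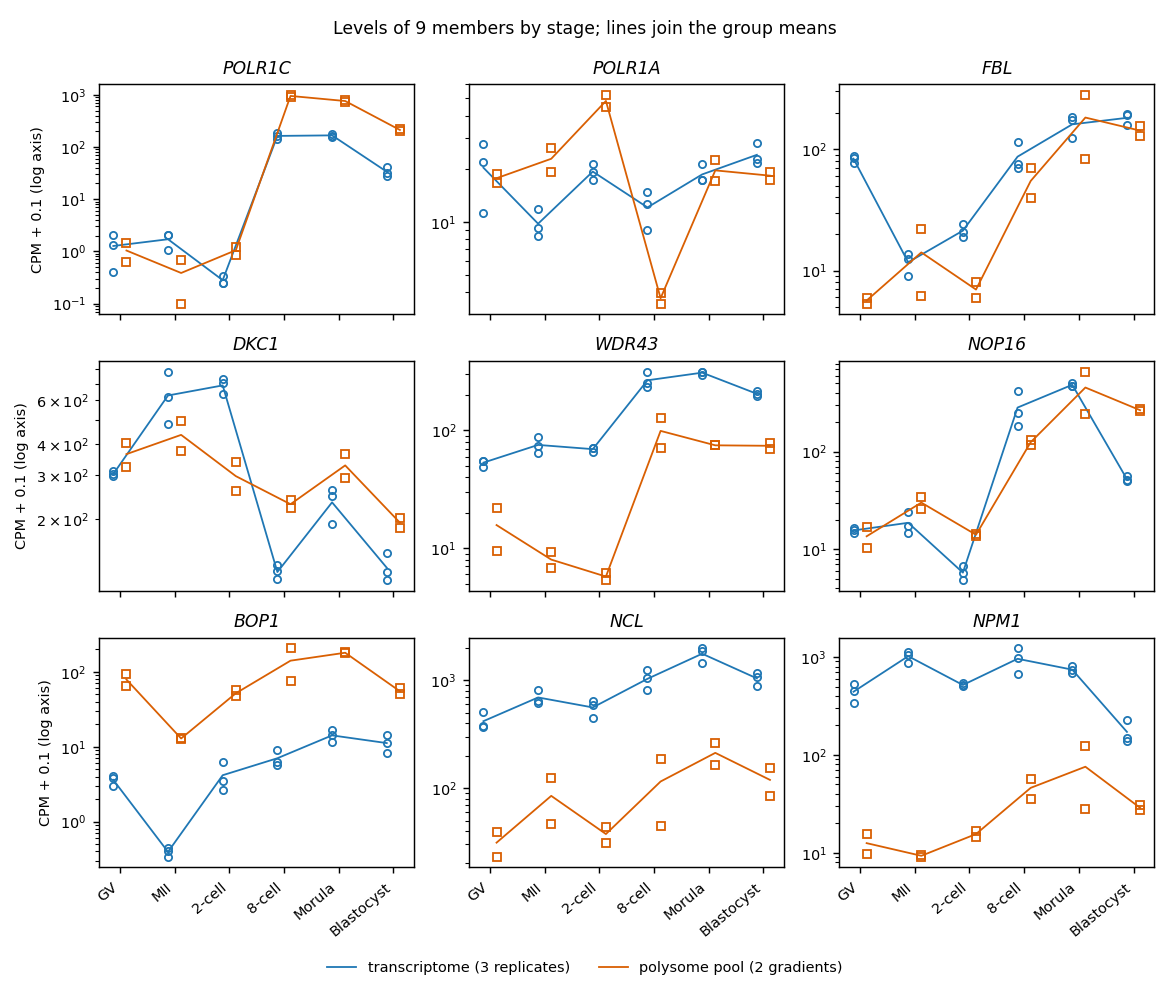
Levels (CPM + 0.1, log axis) of 9 members at 6 stages in transcriptomes (circles, 3 replicates) and polysome pools (squares, 2 gradients), with lines joining the group means. POLR1C, WDR43, NOP16 and FBL are higher at the 8-cell than at the 2-cell stage in both kinds of library, DKC1 falls in the transcriptome from 633 to 730 CPM down to 115 to 131 CPM, POLR1A has its lowest polysome values at the 8-cell stage, and BOP1 lies higher, NCL and NPM1 lower, in polysome pools than in transcriptomes at every stage.

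On polysomes 25 members rose and 4 fell from the 2-cell to the 8-cell stage, where 21.6% of all genes rose and 25.7% fell, with a median of 1.45 over the members and -0.26 over all genes. The median of all genes was a further 0.15 lower with RLE scaling. By role, 6 of 8 snoRNP proteins, 9 of 15 small subunit factors, 5 of 12 large subunit factors and all 3 abundant nucleolar proteins rose, while RNA polymerase I genes were divided, with 2 higher and 2 lower. The count depended on single pools. Without the 8-cell pool B, 17 members rose and 7 fell, without the 8-cell pool A 27 rose and 2 fell, without the 2-cell pool A 18 rose and 3 fell, and without the 2-cell pool B 22 rose and 2 fell. The model of polysome pools alone, in which the spread rests on pairs of pools, called 10 higher and 1 lower.

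WDR43, a processome protein of the group that also aids rRNA transcription, had polysome levels of 6.03 and 5.23 CPM at the 2-cell and 128 and 70.2 CPM at the 8-cell stage (log2 fold change 4.14, SE 0.37, adjusted p = 1.16e-08). UTP6, another processome protein, went from 23.0 and 9.69 CPM to 184 and 144 CPM (3.33, SE 0.39, adjusted p = 4.52e-07). NOP58 rose from 28.6 and 19.3 CPM to 231 and 202 CPM (3.18, SE 0.29, adjusted p = 1.55e-08). GNL3 rose from 4.11 and 13.4 CPM to 104 and 47.6 CPM (3.12, SE 0.54, adjusted p = 7.09e-05), and its fold change was between 2.45 and 4.21 without any 1 pool. None of the 4 overlapped between the stages, and each was called without any 1 pool (UTP6 with 4.09 without 2-cell pool A). The initiation factor RRN3, which brings RNA polymerase I to its promoter, rose from 19.5 and 12 CPM to 155 and 72.7 CPM (2.85, SE 0.66, adjusted p = 0.00124, and 2.21 without 8-cell pool A), whereas its transcriptome values at the 2 stages overlapped (186, 153 and 112 CPM against 113, 202 and 216 CPM).

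The abundant proteins NCL, NPM1 and NOLC1 rose on polysomes from low levels. NCL, nucleolin, went from 31.1 and 43.7 CPM to 44.5 and 185 CPM (log2 fold change 1.62, SE 0.49, adjusted p = 0.00938), and was not called without 8-cell pool B (0.25) or 2-cell pool A (1.40). NPM1 went from 16.5 and 14.4 CPM to 35.7 and 56.4 CPM (1.57, SE 0.44, adjusted p = 0.00546) and was called without any 1 pool. BOP1 (1.44, adjusted p = 0.0117), WDR12 (1.18, adjusted p = 0.0361) and UTP4 (1.47, adjusted p = 0.0227) rose as well, and without 8-cell pool B their values were 0.53, 0.57 and 0.55, none of them called. NOP56 rose from 112 and 176 CPM to 609 and 760 CPM (2.25, SE 0.40, adjusted p = 8.46e-05). IDH3B, a mitochondrial enzyme gene that overlaps NOP56, was at 6.23 and 4.15 CPM and then at 138 and 135 CPM, and its part in the NOP56 value was not tested.

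Against this direction POLR1A, the largest subunit of RNA polymerase I, fell on polysomes from 52.3 and 44.4 CPM to 3.36 and 3.85 CPM (log2 fold change -3.74, SE 0.49, adjusted p = 1.67e-06). Both 8-cell values rest on 1 fraction each, since F8 gave 100% of the 82 counts of pool A and F9 gave 99.3% of the 142 counts of pool B. Its transcriptome values were 21.2, 17.3 and 19.0 CPM and then 8.91, 14.6 and 12.6 CPM, a difference that was not called. TAF1A, a subunit of the promoter selectivity factor SL1, went from 34.1 and 18 CPM to 0.246 and 9.05 CPM (-2.47, SE 0.97, adjusted p = 0.04), and was not called without 2-cell pool A (-1.93) or 8-cell pool A (-1.52), while without 8-cell pool B the value was -6.68. BMS1, a GTPase of the processome, had 4.70 and 22.8 CPM and then 3.98 and 7.27 CPM, which overlap (-1.29, SE 0.50, adjusted p = 0.0382), and the value was 0.26 without 2-cell pool B and -0.92, not called, without 8-cell pool A. Of the 18 members that rose in the transcriptome 17 also rose on polysomes and BMS1 fell, 8 members were called higher on polysomes and not in the transcriptome, and 14 were called in neither kind of library. Shares of all genes with these pairs of calls are not given, so the agreement may not be particular to the members. The pools and transcriptomes are separate libraries, made from oocytes or embryos of the same collections.

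**Figure D3:**
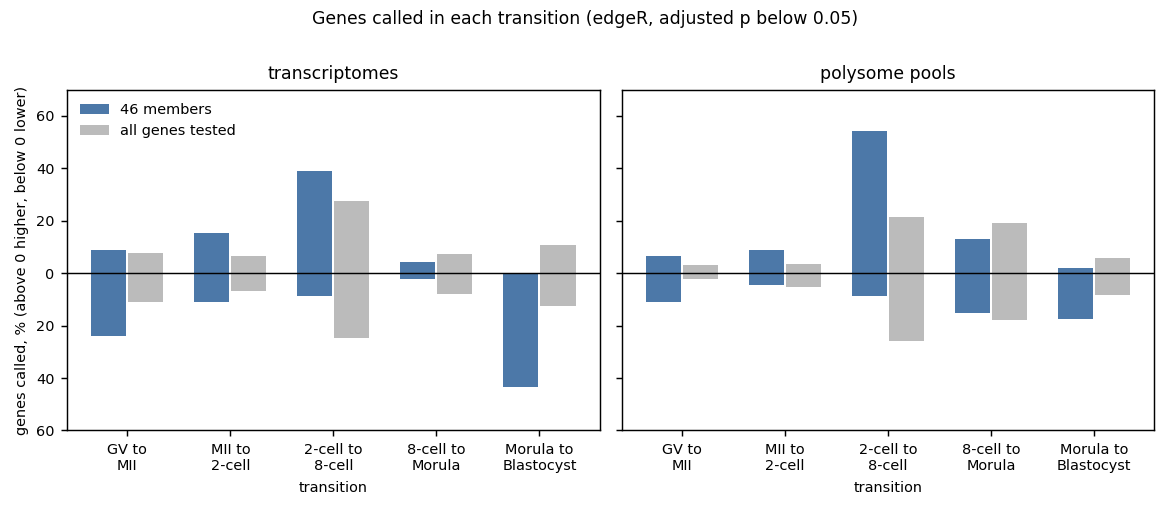
Share of the 46 members (blue) and of the 14612 genes tested (grey) called higher (upward bars) or lower (downward bars) in each of 5 transitions, in percent, in transcriptomes and in polysome pools. Several member bars are taller than the grey ones. An example is the upward bar at the 2-cell to 8-cell transition in polysome pools (25 of 46 members against 21.6% of genes). Another is the downward bar at the morula to blastocyst transition in transcriptomes (20 of 46 against 12.5%).

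Whether a member changed more on polysomes than in the transcriptome was tested as the difference of the 2 log2 fold changes (an interaction term). From the 2-cell to the 8-cell stage this difference was positive for 7 members and negative for 3, against 3.45% and 8.72% of all genes, and its median was 0.68 over the members and -0.23 over all genes. WDR43 rose by 4.14 on polysomes and by 1.95 in the transcriptome, where it went from 71.2, 71.1 and 65.7 CPM to 233, 312 and 255 CPM, and the difference was 2.19 (SE 0.43, adjusted p = 0.00179). For DKC1 the difference was 2.11 (SE 0.33, adjusted p = 0.000219). The polysome pools of DKC1 were at 338 and 259 CPM and then at 239 and 222 CPM, a change that was not called, beside the fall in its transcriptome. UTP6 (1.65, SE 0.47, adjusted p = 0.0229), RRN3 (2.61, SE 0.81, adjusted p = 0.036) and UTP25 (3.1, SE 0.98, adjusted p = 0.039) followed, and so did WDR75 (1.23, SE 0.38, adjusted p = 0.0331) and NOP58 (1.2, SE 0.35, adjusted p = 0.025). UTP25, a processome protein, had 8-cell pools of 1.76 and 34.5 CPM, and without pool B its difference was -0.25.

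Negative differences were those of POLR1A (-3.07, SE 0.58, adjusted p = 0.00138), BMS1 (-2.66, SE 0.65, adjusted p = 0.00898) and NOP16 (-2.48, SE 0.50, adjusted p = 0.00241). BMS1 went from 50.7, 59.0 and 34.5 CPM to 90.5, 159 and 125 CPM in the transcriptome, the opposite direction to its pools, although without 2-cell pool B its difference was -1.11 and not called. NOP16 rose in both, but its pools went only from 13.7 and 14.2 CPM to 118 and 132 CPM. POLR1A, NOP16, WDR43 and DKC1 were called without any 1 of the 10 libraries, although both 8-cell pools of POLR1A drew at least 99.3% of their counts from 1 fraction, and 8-cell pool A of DKC1 drew 92.2% from F10. The count of calls did depend on single libraries. It was 5 without 2-cell transcriptome A (2 positive, 3 negative), 5 without 8-cell transcriptome A and 4 without 2-cell pool B, where RRN3, UTP25, WDR75, UTP6 and NOP58 were among the calls lost.

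From the 8-cell stage to the morula 2 members rose and 1 fell in the transcriptome, namely POLR1B and DKC1, which rose, and POLR1E, which fell, against 7.39% and 8.04% of all genes. DKC1 went from 115, 124 and 131 CPM to 249, 261 and 192 CPM (log2 fold change 0.93, SE 0.21, adjusted p = 0.00354). POLR1B went from 27.0, 26.7 and 38.6 CPM to 54.9, 54.2 and 70 CPM (0.96, SE 0.27, adjusted p = 0.0175), and was not called without 8-cell replicate A or B or without morula replicate C (0.83 to 0.87). POLR1E went from 213, 248 and 258 CPM to 118, 112 and 156 CPM (-0.89, SE 0.26, adjusted p = 0.0195), and was not called without 8-cell replicate B or C or morula replicate A or B (-0.80 to -0.87). A model of the 18 transcriptomes alone called 12 higher and 4 lower, and the shares of all genes above are not those of that model. RLE scaling lowered the median of all genes by 0.13 here.

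On polysomes 6 members rose and 7 fell from the 8-cell stage to the morula, against 19% and 18% of all genes, and 5 of the 7 that fell were RNA polymerase I genes (TAF1A, TCOF1, RRN3, POLR1B and POLR1E). Each of these 5 lost the call without at least 1 pool, POLR1B (-0.91) without any 1 of the 4 pools and POLR1E (-0.87) in 3 of the 4 fits. POLR1A itself rose back, from 3.36 and 3.85 CPM to 22.2 and 16.9 CPM (log2 fold change 2.43, SE 0.46, adjusted p = 0.000309). TAF1A had 0 and 2 counts in the morula pools, and the ratio of 8-cell to morula was 154 (95% counting interval 42.3 to 1280, adjusted p = 0.0013), but the 8-cell pools held 0.246 and 9.05 CPM, and without pool B the log2 value was -2.57 and not called. TCOF1 went from 52.6 and 12.8 CPM to 5.01 and 3.80 CPM (-2.89, SE 0.75, adjusted p = 0.00434), not called without 8-cell pool A (-1.54), and in both 8-cell pools over 90% of its counts came from F10 (97.7% and 91.1%). NIP7 fell from 63.1 and 34.4 CPM to 8.29 and 10.8 CPM (-2.35, SE 0.43, adjusted p = 0.000244), and all 172 counts of its morula pool A came from F10. GAR1, an H/ACA core protein, rose from 0.533 and 0.759 CPM to 24.6 and 1.58 CPM (4.31, SE 0.92, adjusted p = 0.000944), but 93.2% of the counts of morula pool A came from F9, and without that pool the value was 1.28 and not called. BMS1 rose to 30.7 and 16.3 CPM (2.06, SE 0.51, adjusted p = 0.0033). FBL went from 39.4 and 69.8 CPM to 280 and 82.9 CPM (1.73, SE 0.50, adjusted p = 0.00888), and RRN3 fell to 4.24 and 41.6 CPM (-2.31, SE 0.65, adjusted p = 0.00768), neither of them called without 8-cell pool A (1.37 and -1.66) or morula pool A (0.61 and -1.44). Without morula pool B the value of RRN3 was -4.72 and that of FBL 2.38.

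Counts of the morula transition also moved with single pools, to 4 higher and 3 lower without morula pool A, 13 higher and 5 lower without 8-cell pool B, and 8 higher and 9 lower without morula pool B. The model of polysome pools alone called 1 member. In the interaction test 2 members had a positive and 4 a negative difference, against 7.06% and 5.41% of all genes. POLR1B (-1.86, SE 0.43, adjusted p = 0.00578) and NIP7 (-2.34, SE 0.54, adjusted p = 0.00613) were called without any 1 library. For NIP7, however, F10 gave 100% of the counts of morula pool A. GAR1 (3.62, SE 1.07, adjusted p = 0.0276), POLR1A (1.82, SE 0.57, adjusted p = 0.0368), TAF1A (-5.78, SE 1.71, adjusted p = 0.0277) and TCOF1 (-2.76, SE 0.92, adjusted p = 0.0489) each lost the call in 4 or more of the 10 fits, with the values nearest to 0 being 0.58 for GAR1 without morula pool A, -1.55 for TAF1A without 8-cell pool B and -1.41 for TCOF1 without 8-cell pool A. The number of calls was 2 without morula pool A, 3 without 8-cell transcriptome C or any 1 morula transcriptome, 10 without 8-cell pool B and 14 without morula pool B.

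Towards the blastocyst 20 members fell in the transcriptome and 0 rose, against 12.5% and 10.8% of all genes (edgeR, with 2 members higher at an unadjusted p below 0.05, 2 by DESeq2 and 0 by edgeR's likelihood ratio test). The median was -0.92 over the members and -0.01 over all genes. Falls were found in every role group, with 7 of 15 small subunit factors, 5 of 8 snoRNP proteins, 5 of 12 large subunit factors, 2 of 8 RNA polymerase I genes and 1 of 3 abundant nucleolar proteins. NOP16 went from 472, 503 and 476 CPM to 56.4, 49.5 and 50.6 CPM (log2 fold change -3.21, SE 0.34, adjusted p = 3.68e-07). GAR1 went from 76.9, 81.4 and 81.3 CPM to 17.9, 10.8 and 8.80 CPM (-2.68, SE 0.69, adjusted p = 0.0059). UTP20, a large scaffold protein of the processome, went from 205, 309 and 238 CPM to 46.2, 56.4 and 39.4 CPM (-2.40, SE 0.80, adjusted p = 0.0306), with no overlap, and its call was lost without any 1 of 5 of the 6 libraries (-2.23 to -2.54). NPM1 fell from 738, 808 and 681 CPM to 150, 228 and 138 CPM (-2.11, SE 0.36, adjusted p = 0.000149) and WDR12 from 293, 326 and 351 CPM to 73.8, 81.1 and 91.8 CPM (-1.97, SE 0.38, adjusted p = 0.000464). Between 17 and 19 members were called when 1 library was left out, and the transcriptomes alone gave 31 lower and 6 higher. The shares of all genes above do not belong to these fits. In pooled embryos fewer cells of a type and less RNA per cell cannot be told apart.

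The polysome pools had 1 member higher and 8 lower between morula and blastocyst, against 5.87% and 8.38% of all genes. POLR1C went from 721 and 798 CPM to 219 and 204 CPM (log2 fold change -1.84, SE 0.57, adjusted p = 0.0337). NOLC1, a chaperone of snoRNPs, went from 310 and 151 CPM to 68.6 and 56.5 CPM (-1.88, SE 0.52, adjusted p = 0.0181), and was not called without morula pool A (-1.25), blastocyst pool A (-2.02) or blastocyst pool B (-1.73). GAR1 went from 24.6 and 1.58 CPM to 0.957 and 1.57 CPM (-3.36, SE 0.88, adjusted p = 0.0134). The member that rose, TAF1A, had 0 and 2 counts in morulae and 4.70 and 0 CPM in blastocysts, which overlap, and the call was lost without blastocyst pool A, when the value was -2.60. No more than 1 of the falls was called without blastocyst pool A or without blastocyst pool B, and without morula pool A the values of NPM1 (30.6 and 27.1 CPM in blastocysts, 124 and 27.7 CPM in morulae) and GAR1 were 0.08 and -0.30 in place of -1.39 and -3.36. The model of polysome pools alone called 0 members by edgeR, with 1 higher and 4 lower at an unadjusted p below 0.05, and DESeq2 called 1 higher and 8 lower.

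At every stage more members were lower in polysome pools than in the transcriptome than were higher. GV pools had 23 members lower and 3 higher, beside 17.7% and 22.2% of all genes, and MII pools 25 and 9, beside 26.7% and 30.8%. Pools of 2-cell embryos had 24 lower and 8 higher, beside 21.9% and 29.1%, and 8-cell pools 22 and 9, beside 31% and 28%. Morula pools had 24 lower and 3 higher, beside 25.2% and 26.5%, and blastocyst pools 20 and 8, beside 20.1% and 20%. The median log2 difference of the members was between -0.65 at the 8-cell stage and -1.31 in GV oocytes. That of all genes was 0.18 at the 2-cell stage, -0.26 at the 8-cell stage, -0.08 in blastocysts and 0.0 in GV oocytes, MII oocytes and morulae. RLE scaling lowered the median of all genes by 0.17 at the 2-cell stage, 0.24 at the 8-cell stage, 0.11 in morulae and 0.15 in blastocysts, and reversed no member call. Of the 46 members 12 were lower in polysome pools at all 6 stages, which is 26.1%, where 845 of the 14612 genes tested were (5.78%), and 1 was higher at all 6, where 1449 genes were (9.92%). Of the 12, NCL, NPM1, NOP58, UTP6, WDR43 and WDR75 kept all 6 calls without any 1 library. The other 6 each lost at least 1, namely UTP20 (GV, 2-cell and blastocyst), TAF1A (GV and blastocyst), UTP3, UTP23 and WDR12 (blastocyst) and GAR1 (morula). The 6 comparisons have separate libraries but share a single fit and its estimate of the spread, so their calls are not independent.

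**Figure D4:**
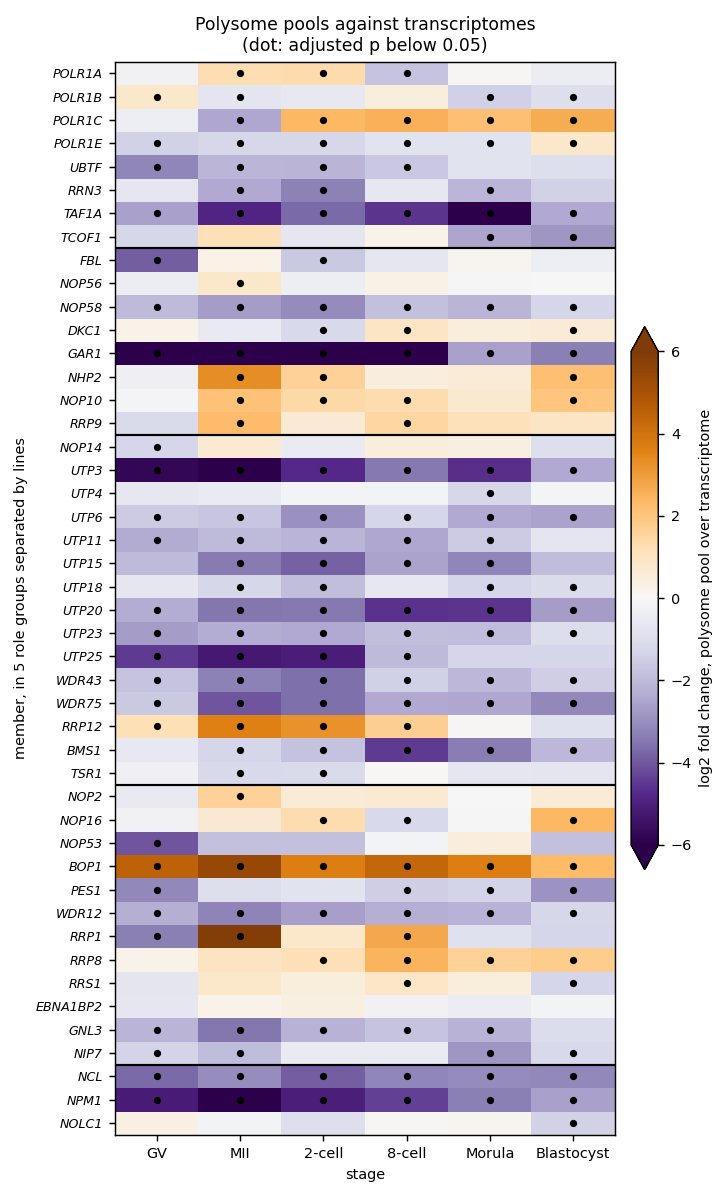
Log2 fold change of the polysome pools over the transcriptomes for each member (rows, in 5 role groups separated by lines) at 6 stages (columns), with a dot where adjusted p was below 0.05. Purple cells are lower and orange cells higher in polysome pools, and 12 rows (TAF1A, NOP58, GAR1, UTP3, UTP6, UTP20, UTP23, WDR43, WDR75, WDR12, NCL and NPM1) are purple with a dot at all 6 stages, while BOP1 is orange with a dot at all 6.

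The members lower in polysome pools at all 6 stages were 6 of the 15 small subunit factors, 2 snoRNP proteins, 2 abundant nucleolar proteins, 1 RNA polymerase I gene and 1 large subunit factor. NPM1 had transcriptome levels of 339, 533 and 455 CPM in GV oocytes against 15.4 and 9.67 CPM in the pools (log2 difference -5.14, SE 0.50, adjusted p = 2.15e-08). In MII oocytes its pools held 9.01 and 9.51 CPM beside 1060, 871 and 1130 CPM (-6.78, SE 0.54, adjusted p = 2.37e-10), and in blastocysts 30.6 and 27.1 CPM beside 150, 228 and 138 CPM (-2.58, SE 0.44, adjusted p = 5.15e-05). NCL held a difference between -3.03 and -3.90 at all stages, for instance 1980, 1870 and 1440 CPM against 263 and 162 CPM in morulae (-3.05, SE 0.50, adjusted p = 2.08e-05). In neither gene did any pool of a stage reach the lowest transcriptome of that stage. The MII and 8-cell differences of NCL were -3.94 without MII pool B and -4.53 without 8-cell pool B, and all of these remained called.

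GAR1 was the member furthest below its transcriptome before the morula stage. Its pools held 0 and 0.189 CPM in GV, 0.252 and 0.0358 CPM in MII, 0.222 and 0.523 CPM in 2-cell and 0.533 and 0.759 CPM in 8-cell samples, while its transcriptomes lay between 20.2 and 75.6 CPM. The log2 differences were -7.86, -8.88, -7.07 and -6.23 (adjusted p at most 1.07e-05), and without 1 pool they ran from -6.89 to -11.66 in GV and from -8.13 to -10.75 in MII oocytes. UTP3, a processome factor, was at 65.0, 71.9 and 66.5 CPM in GV transcriptomes and at 2.27 and 0.243 CPM in pools (-5.74, SE 0.81, adjusted p = 4.27e-06), with -8.08 without pool A and -4.9 without pool B. UTP25 was at 65.8, 60.4 and 63.1 CPM and at 2.59 and 1.11 CPM at the 2-cell stage (-5.09, SE 0.86, adjusted p = 2.69e-05, and -5.83 without pool A). WDR75 differed by -3.14 (SE 0.30, adjusted p = 3.08e-08) in blastocysts, at 95.8, 102 and 118 CPM against 12.4 and 11.4 CPM. UTP20 differed by -4.64 (SE 1.05, adjusted p = 0.000638) at the 8-cell stage, where its pools held 0 and 18.4 CPM beside 150, 295 and 249 CPM, and the value was -3.65 without pool A and -14.97 without pool B. In morulae TAF1A had transcriptome levels of 54.5, 51.9 and 56.8 CPM beside 0 and 2 counts, a ratio of 1510 (95% counting interval 416 to 12400, adjusted p = 7.09e-06). Of the small subunit factors 8 to 12 were lower in polysome pools at any one stage, and their median difference was between -1.31 in blastocysts and -2.42 in 2-cell embryos.

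Among the members with higher polysome levels BOP1 stood first, called at all 6 stages. It was at 3.72, 2.87 and 3.95 CPM in GV transcriptomes and at 65.5 and 92.4 CPM in pools (log2 difference 4.49, SE 0.44, adjusted p = 2.32e-08). In MII oocytes the ratio was 43.2 (95% counting interval 21.8 to 100, adjusted p = 3.54e-09), and in the later stages the difference was 3.66, 4.34, 3.68 and 2.31 (3.42 at the 8-cell stage without pool B). All pools of BOP1 lay above all transcriptomes at each stage. PES1 and WDR12 are its partners in the complex. PES1 was lower in GV pools (17.7, 8.20 and 12.2 CPM against 1.77 and 1.19 CPM, log2 difference -3.1, adjusted p = 0.000122) and in 8-cell (-1.46), morula (-1.32) and blastocyst pools (-2.89), and was not called in MII (-0.95) or 2-cell samples (-0.82). Its 8-cell call was lost without pool B (-0.97) and its morula call without transcriptome A, transcriptome B or pool B (-1.06 to -1.29). WDR12 was lower at all 6 stages, from -1.22 to -3.20, and its blastocyst call (-1.22) was lost without transcriptome C (-1.14), pool A (-1.46) or pool B (-1.02). The scleraxis gene SCX overlaps the span of BOP1 and was not among the genes fitted. Without strand in the libraries reads from overlapping genes could be assigned to either, and whether BOP1 and SCX share reads was not tested.

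RRP12 was higher in the pools in GV, MII, 2-cell and 8-cell samples, with 19.0, 10.4 and 15.3 CPM against 141 and 131 CPM at the 2-cell stage (log2 difference 3.19, SE 0.40, adjusted p = 4.61e-07), and not in morulae (0.07) or blastocysts (-0.86). The GV value of RRP12 (1.19, adjusted p = 0.0168) was not called without GV pool A (0.79), transcriptome B (1.08) or transcriptome C (1.05), and its MII value of 3.61 was 2.99 without pool A. POLR1C was lower in MII pools (-2.47, SE 0.69, adjusted p = 0.00414, with -1.54 without pool A and -7.87 without pool B) and higher from the 8-cell stage, with 144, 184 and 161 CPM against 903 and 998 CPM at the 8-cell stage (2.54, SE 0.51, adjusted p = 0.000185), 2.19 in morulae (adjusted p = 0.000953) and 2.66 in blastocysts (adjusted p = 0.000232). At the 2-cell stage the ratio was 5.36 (95% counting interval 2.46 to 13.9), a call lost without pool A (log2 2.04). RRP8, an rRNA adenine methyltransferase, was higher at the 4 embryo stages, with 5.57, 11.2 and 13.1 CPM against 40.6 and 68.7 CPM at the 8-cell stage (2.45, SE 0.44, adjusted p = 6.14e-05), and 1.64 in morulae (adjusted p = 0.00338), though its 2-cell call (1.15) was lost without pool A (0.56). NOP10 and NHP2 were higher in MII, 2-cell and blastocyst pools, and NOP10 also in 8-cell pools (1.27), a call lost without pool A (0.94). NHP2 was higher by 3.29 in MII oocytes (SE 0.33, adjusted p = 9.24e-09), and NOP16 was higher in 2-cell and blastocyst pools (2.35 in blastocysts, SE 0.35, adjusted p = 9.48e-06) and lower at the 8-cell stage (-1.18, adjusted p = 0.00735), the latter not called without transcriptome B (-0.79) or pool A (-1.1). RRP1 had the highest difference in MII oocytes, 5.86, which was -1.70 without pool B.

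The RNA polymerase I genes differed from each other in the same comparison. UBTF, the factor that binds ribosomal DNA, was below its transcriptome in GV, MII, 2-cell and 8-cell pools (log2 difference -3.18 in GV oocytes, SE 0.66, adjusted p = 0.000431), with 21.6, 16.5 and 18.9 CPM against 2.40 and 1.78 CPM in GV oocytes, and was not called in morulae (-0.81) or blastocysts (-0.96). Its MII and 2-cell calls were lost without pool A of the stage (-1.88 and -1.82) and its 8-cell call without pool B (-0.94) or transcriptome C (-1.48), while without 8-cell pool A it was -3.14. POLR1A was higher in MII pools (1.23, adjusted p = 0.0104) and 2-cell pools (1.33, adjusted p = 0.0066), both lost without pool A (0.93 and 1.2), and lower at the 8-cell stage (-1.74, SE 0.43, adjusted p = 0.00136). POLR1B was higher in GV pools (0.80, adjusted p = 0.033) and lower in MII pools (-0.74), morula pools (-1.44, adjusted p = 0.00058) and blastocyst pools (-0.94). Of these, the GV call was lost in 4 of 5 fits without 1 library, the MII call without transcriptome B (-0.73), transcriptome C (-0.75) or pool B (-0.54), and the blastocyst call without pool B (-0.67). RRN3 was lower in MII, 2-cell and morula pools, with 186, 153 and 112 CPM against 19.5 and 12 CPM at the 2-cell stage (-3.25, SE 0.65, adjusted p = 0.000199), and its morula value of -2.1 was -1.27, not called, without pool A and -4.55 without pool B. TCOF1 was lower in morula pools (-2.51, adjusted p = 0.00487) and blastocyst pools (-2.82, adjusted p = 0.00294). FBL was lower in GV pools, with 5.88 and 5.24 CPM (-3.90, SE 0.53, adjusted p = 2.32e-06), and in 2-cell pools (-1.63, adjusted p = 0.00595), the latter lost without pool B, while NOP56 differed by no more than 0.82 at any stage.

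Light pools, the summed counts of the monosome fractions F3 to F5, were set against the transcriptomes in the same way, a comparison added after the polysome values had been seen. At the GV stage 21 members were lower in light pools and 5 higher, where 20.9% and 31.8% of all genes were, and at MII 19 were lower and 17 higher, where 24.9% and 34.7% were. The 2-cell stage had 17 lower and 10 higher beside 18% and 30.6% of genes, and the 8-cell stage 25 and 10 beside 36.7% and 34.7%. At the morula stage 31 were lower and 4 higher beside 29.3% and 29.6%, and at the blastocyst stage 23 and 4 beside 25% and 17.9%. Both kinds of pool were made from the supernatant of a centrifuged lysate and the transcriptomes from whole oocytes or embryos, and the part of this step in the difference was not tested.

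Heavy and light pools of the same gradients were then compared directly over 14873 genes, where few genes of any kind were called. In GV oocytes 1 member was lower in heavy pools and 0 higher (0.182% and 0.316% of all genes), and in MII oocytes again 1 and 0 (0.175% and 0.262%), by edgeR. The member in GV oocytes was NOP2, at 30.2 and 34.2 CPM in heavy pools and 214 and 338 CPM in light pools (log2 difference -3.1, SE 0.57, adjusted p = 0.024). The one in MII oocytes was NOP56, at 302 and 387 CPM against 1670 and 1990 CPM (-2.41, SE 0.49, adjusted p = 0.0341), and with the gradient as a replicate block it was not called (0 members then). Both calls were lost without any 1 of the 4 pools. Members higher at an unadjusted p below 0.05 numbered 3 in GV and 2 in MII oocytes, with 2 and 0 called by DESeq2 and 0 and 0 by edgeR's likelihood ratio test. In 2-cell embryos 0 members and 0% of all genes were called in either direction, with 1 higher and 3 lower at an unadjusted p below 0.05, 0 and 1 by DESeq2 and 0 by edgeR's likelihood ratio test.

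At the 8-cell stage 6 members were higher in heavy pools and 1 lower, against 4.55% and 4.80% of all genes, with a median of 0.74 over the members and 0.00 over all genes. WDR43 was at 117 and 62.4 CPM in heavy and 4.38 and 8.32 CPM in light pools (log2 difference 3.82, SE 0.62, adjusted p = 0.00392), and UTP6 at 168 and 128 CPM against 1.02 and 16.1 CPM (4.11, SE 0.89, adjusted p = 0.0131), the latter with 3.2 without light pool A and 7.19 without light pool B. UTP11, a processome protein, was at 26.2 and 32.4 CPM against 0.286 and 2.77 CPM (4.26, SE 0.99, adjusted p = 0.0167), lost without light pool A (3.4). F9 gave 97.9% of the UTP11 counts of heavy pool A, and the top fraction of heavy pool B gave 47.9%. NOP58, NOP10 and UTP18 were the other members higher, and each of these 3 lost the call without light pool A (2.24, 2.55 and 2.0). NOP10 also lost it without heavy pool A (1.77) or light pool B (1.67), and UTP18 without any 1 of the 4 pools (1.88 to 2.55). POLR1A was lower in heavy pools, at 3.06 and 3.43 CPM against 61.3 and 13.9 CPM (-3.53, SE 0.97, adjusted p = 0.0307), with almost all counts of each heavy pool from 1 fraction, and was not called without light pool A (-2.10), heavy pool A (-3.37) or heavy pool B (-3.49), nor with the gradient as a replicate block. Without light pool A 3 members were called and without heavy pool A 4, all of them higher. In morulae 0 members were called (0.699% of all genes higher, 0.888% lower), with 7 higher and 1 lower at an unadjusted p below 0.05 and 1 higher by DESeq2 and by the likelihood ratio test. In blastocysts 1 was higher and 0 lower (0.8% and 0.632% of all genes), with 1 lower at an unadjusted p below 0.05 and 0 lower by DESeq2 and by the likelihood ratio test. It was POLR1B, at 40 and 26.6 CPM in heavy and 6.70 and 1.94 CPM in light pools (2.95, SE 0.58, adjusted p = 0.0163), lost without heavy pool A (2.62) or light pool B (2.31).

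Single fractions gave the same values at finer scale, as a description of 2 gradients. The fraction with the highest mean level was F8, F9 or F10 for 23 of the 46 members at the 8-cell stage, and for 18 at GV, 15 at the morula, 13 at MII, 12 at the blastocyst and 11 at the 2-cell stage. The free RNA fractions F1 and F2 held the peak of 11 to 16 members at each stage. Spearman's rho of level on fraction number from F3 to F10 had a median over the members of -0.40 in MII oocytes and 0.20 in 8-cell embryos. Fraction peaks and rho are given for the members only, so a shift common to all genes cannot be told apart. At the 8-cell stage WDR43 rose to 344 and 74.3 CPM in F10 from 0.587 and 1.28 CPM in F4, UTP6 reached 318 and 228 CPM in F10, and NOP56 712 and 940 CPM. POLR1C was spread evenly, between 485 and 1090 CPM in F3 to F10, and POLR1A was listed at 0 in F10 of both gradients while F5 held 93.2 and 6.66 CPM.

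**Figure D5:**
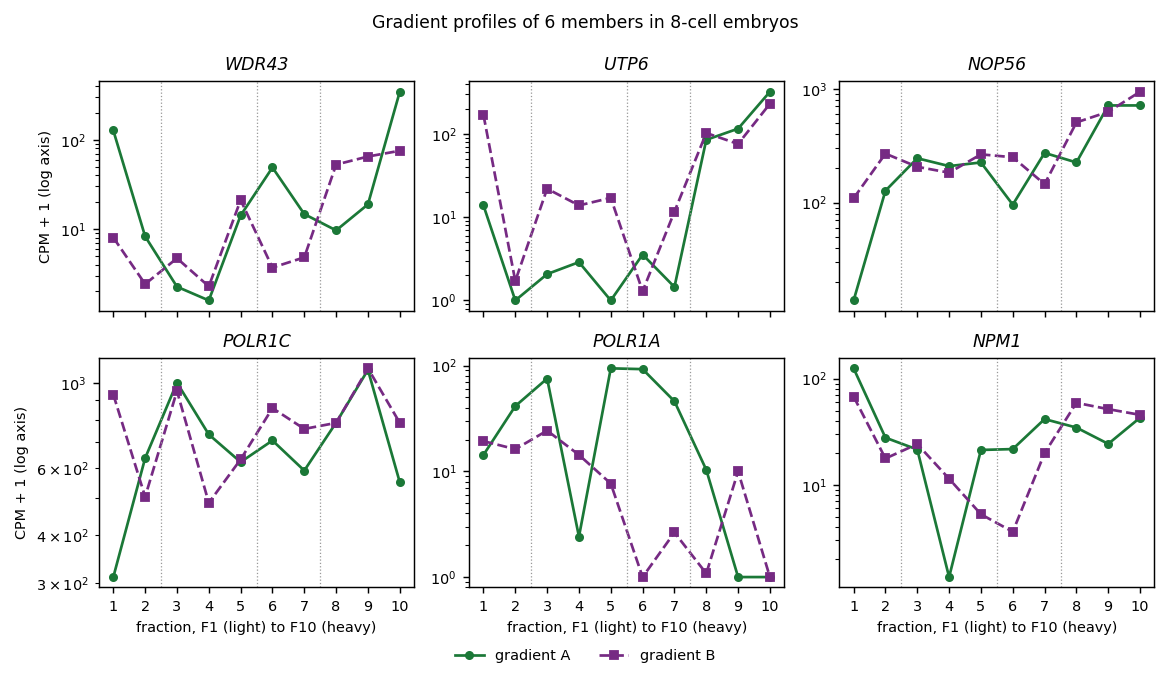
Levels (CPM + 1, log axis) of 6 members across fractions F1 (light) to F10 (heavy) of the 2 gradients of 8-cell embryos, with dotted lines between free RNA (F1 and F2), monosome (F3 to F5), intermediate (F6 and F7) and polysome fractions (F8 to F10). WDR43, UTP6 and NOP56 are high in F10, POLR1C varies little beside them and POLR1A is at 0 in F10 of both gradients. F9 gave the most pool counts of WDR43 in gradient B (38.8%) and of NOP56 in gradient A (46.8%).

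A single fraction often supplied most of a pool. The fraction with the most counts gave a median of 57.8% of a member's 8-cell pool counts and 43.2% of its GV pool counts, and more than 90% in 14 of 90 8-cell pools and 3 of 91 GV pools. In 8-cell pool A this was the case for WDR43, with 92% of its counts from F10, but in pool B no fraction gave it more than 38.8%.

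In the RefSeq annotation 8 members contain snoRNA genes within their span, namely NOP56 (5), NOP58 (4), WDR43, GNL3 and NCL (3 each), TSR1 (2), POLR1A and NOP53 (1 each). This is 17.4% of the members, where 250 of 14350 tested genes with a RefSeq record contain one (1.74%). These 8 genes had 5 of 8 lower in polysome pools in GV, MII, 2-cell and 8-cell samples, 4 in morulae and 3 in blastocysts. Of the other 38 members 18, 20, 19, 17, 20 and 17 were lower, in order of stage, and the shares of all genes lower are those given above. Of the 46 members, 8 overlap another protein-coding gene, as do 18.4% of tested genes, and since the libraries keep no strand their levels are less certain. They are POLR1C, UBTF, NOP56, RRP9, TSR1, BOP1, EBNA1BP2 and NIP7.

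A further 105 ribosome biogenesis genes and 76 cytosolic ribosomal protein genes were listed for comparison. From the 2-cell to the 8-cell stage 41 of the 105 rose and 16 fell in the transcriptome (median log2 fold change 0.56), and 41 rose and 8 fell on polysomes (median 0.70). Into the blastocyst 46 fell and 2 rose in the transcriptome (median -0.90). In the polysome comparison 42, 50, 46, 44, 42 and 29 of the 105 were lower in pools, in order of stage, and 22, 39, 31, 36, 33 and 26 were higher. The ribosomal protein genes had another course, with 64 of 76 falling in the transcriptome from MII to the 2-cell stage (median -1.64), 76 of 76 rising to the 8-cell stage (median 4.06) and 75 of 76 rising there on polysomes. Into the blastocyst 23 of them rose in the transcriptome. Their polysome levels were higher than the transcriptome for 31 and lower for 15 of 76 in MII oocytes, where 30.8% and 26.7% of all genes were. In GV oocytes the counts were 5 and 24, beside 22.2% and 17.7% of all genes. The later stages of this comparison are not given for the ribosomal protein genes. For the other counts of both lists, the shares of all genes are those given above.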

How the data were processed

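Gradient fractions F1 to F10 (120 libraries) and transcriptomes (18 libraries) were sequenced at 6 stages. The authors made cDNA from polyadenylated RNA by Smart-seq2 and libraries by Nextera XT, neither of which keeps strand, and deposited a single table of expected counts from Salmon for 16706 gene symbols, not normalised, in which 11.7% of values are not whole. The paper's methods name the ARS-UCD1.2 assembly and the submitters' processing notes UMD3.1, and tool versions are not given in the sources used here. No coordinates are printed for that reason. The table gives symbols only. Of 78 pairs of replicates none held identical values (0), and 0 columns were left unmapped.

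Counts were rounded, F8 to F10 of each gradient were summed as polysome (heavy) pools and F3 to F5 as light pools. Genes were filtered with filterByExpr, scaled by TMM and tested with edgeR 4.0.16 (quasi-likelihood test, R 4.3.3). The 30 transcriptomes and polysome pools in 12 groups entered a single fit of 14612 genes with a shared estimate of spread, and the 24 heavy and light pools another of 14873 genes. Adjusted p-values are Benjamini-Hochberg values over all genes of the fit and a comparison, for 24 comparisons, with a threshold of 0.05. Each SE was worked back from the test, as the absolute log2 fold change divided by the square root of the F statistic. Intervals of ratios with 3 or fewer counts per library (95%) cover counting error only. Fraction libraries held between 1229382 and 17342859 counts. On simulated counts the test recovered 55% of 4-fold and 95% of 8-fold changes for 2-cell against 8-cell transcriptomes (13859 genes), and 25% and 80% for 8-cell heavy against light pools (14447 genes). The simulation gave every gene the same spread and changed only a small set of well-counted genes, in a single group. Real pools can differ far more from each other, so these rates are not the power of the comparisons reported here.

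Alternatives were DESeq2 1.42.0, edgeR's likelihood ratio test (the study's test), RLE scaling, no filter, separate fits of polysome pools or transcriptomes, fractions scaled to a common total, F9 and F10 alone, replicate blocks, each library left out in turn, and light pools in place of polysome pools, the last chosen after seeing the data. The rule for the members names genes by role and uses no value, but members and gene lists were chosen with earlier results of these data known. The members named were 17 well-known ones, the 3 called with the highest and the 3 with the lowest fold change in each comparison, and up to 5 in each direction of the interaction test. UTP18, TSR1, UTP23 and the members named only in lists by stage or overlap were named after their values were seen. Letters of replicates were not taken to pair libraries, since correlations of deviations between same-lettered libraries ran from -0.35 to 0.13 over transcriptomes and from -0.07 to 0.05 over polysome pools. Heavy and light pools with the same letter share a gradient (correlations from -0.08 to 0.17). RefSeq records of another assembly (ARS-UCD2.0) were used only to find which genes overlap or contain snoRNA genes. No sequences are shown.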

Additional observations from a re-analysis of the deposited data

Results flagged for a closer look

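The results that stood out under a formal comparison were the members whose change on polysomes differed from their change in the transcriptome, by an interaction term in the edgeR fit, with adjusted p below 0.05. From the 2-cell to the 8-cell stage the difference, given on the log2 scale as polysome change minus transcriptome change, was positive for UTP25 (3.1), RRN3 (2.61), WDR43 (2.19), DKC1 (2.11), UTP6 (1.65), WDR75 (1.23) and NOP58 (1.2), and negative for POLR1A (-3.07), BMS1 (-2.66) and NOP16 (-2.48). Of these, WDR43, DKC1, POLR1A and NOP16 were called without any 1 library. From the 8-cell stage to the morula the difference was positive for GAR1 (3.62) and POLR1A (1.82) and negative for TAF1A (-5.78), TCOF1 (-2.76), NIP7 (-2.34) and POLR1B (-1.86), of which NIP7 and POLR1B were called without any 1 library. POLR1A thus had a negative difference into the 8-cell stage and a positive one out of it. Both use the same 8-cell libraries, in which 1 fraction gave 100% (pool A) and 99.3% (pool B) of the POLR1A counts. For NIP7, F10 gave 100% of the counts of morula pool A.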

How the results depend on the processing

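Counts of members called were recomputed under 65 settings. Apart from the light pools, shares of all genes under these settings are not given, so a change in a count may not be particular to the members. Of 285 such counts, 230 stayed within 1.5 times of the reported one. Of the 341 called values, 332 kept direction and call with DESeq2, 341 with edgeR's likelihood ratio test, 321 with RLE scaling and 319 without a filter, and none turned direction under these. Polysome pools fitted alone gave 0, 0, 11, 1 and 0 members in the 5 transitions in order of stage (reported: 8, 6, 29, 13 and 9), while transcriptomes alone gave 32, 23, 16 and 37 for GV to MII, MII to 2-cell, 8-cell to morula and morula to blastocyst (reported: 15, 12, 3 and 20). DESeq2 called 15 members on polysomes from GV to MII and 15 from MII to 2-cell, and the likelihood ratio test 11 in the latter. Heavy against light pools gave, by DESeq2, 5 (GV), 5 (MII), 1 (2-cell), 13 (8-cell), 1 (morula) and 4 (blastocyst), by the likelihood ratio test 2 (MII), 11 (8-cell), 1 (morula) and 2 (blastocyst), and with F9 and F10 alone 0 in GV, MII and blastocyst samples.

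With the replicate letter as a replicate block, transcriptome transitions had 14, 11, 21, 3 and 20 calls, polysome transitions 7, 5, 28, 14 and 7, polysome against transcriptome 24, 33, 32, 29, 27 and 26, and the interactions 9 and 4. With the gradient as a replicate block, heavy against light pools had 1, 0, 0, 6, 0 and 1 calls. The block moved no other count by over 1.5 times than that of MII oocytes (0, reported 1).

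Without 1 library the number of calls ran from 3 to 9 for polysomes from GV to MII, 7 to 18 from 8-cell to morula, 1 to 10 from morula to blastocyst, 4 to 12 for the interaction into the 8-cell stage and 2 to 14 for that into the morula. Heavy against light pools gave 0 in GV and 0 in MII oocytes in each such fit, 3 to 8 at the 8-cell stage, 0 to 3 in morulae and 0 to 2 in blastocysts. Values that turned direction without 1 pool ran, on the log2 scale, from -1.33 to 7.17 (RRP1, GV to MII) and from -4.89 to 4.98 (RRP1, MII to 2-cell), both without MII pool B. Into the 8-cell stage on polysomes they ran from -0.07 to 4.22 (UTP25), -0.2 to 1.86 (TSR1), -5.07 to 3.53 (NOP53) and -10.5 to 2.23 (UTP15), all without 8-cell pool B, and from -2.01 to 0.26 (BMS1, without 2-cell pool B). UTP15 ran from -2.09 to 10.64 from 8-cell to morula. From morula to blastocyst the ranges were -1.77 to 1.79 (RRN3, without morula pool B), -2.6 to 8.38 (TAF1A, without blastocyst pool A) and -2.1 to 0.08 (NPM1, without morula pool A). Against the transcriptome RRP1 ran from -1.7 to 6.8 in MII and from -0.32 to 3.64 in 8-cell pools and TSR1 from -1.35 to 0.71 in 8-cell pools. Interaction values ran from -0.25 to 4.03 (UTP25), -5.94 to 2.65 (NOP53) and -10.44 to 2.29 (UTP15) into the 8-cell stage, and from -1.61 to 11.12 (UTP15) and -1.46 to 0.83 (WDR12) into the morula. UTP15 ran from -10.48 to 2.99 between heavy and light 8-cell pools. With all libraries NOP53, UTP15, WDR12 into the morula, TSR1 against the transcriptome, RRN3 into the blastocyst and RRP1 from MII to 2-cell were not called. The cause was not tested.

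With 2 gradients per stage, 1 fraction that supplies most of a pool can set a polysome value. Levels are shares of a library, so they do not measure molecules per embryo, and oligo(dT) priming leaves mRNA amount and poly(A) length together. Letters of replicates do not pair transcriptomes with gradients. Genes that share reads with an overlapping gene cannot be separated without strand.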
